A study of Mus musculus with 12 samples.

Results

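Peaks of open chromatin were followed at 9 genes of the transitional alveolar state and the p53 pathway in sorted mouse alveolar type II (AT2) cells: Krt8, Cldn4, Sfn, Lgals3, Plaur, Sox4, Trp53, Mdm2 and Cdkn1a. The list of genes was given, and each was followed over its gene body with 10 kb on each side in GRCm38 coordinates, which is called its locus. Of 21631 protein-coding loci in the annotation, 16823 had peaks in 3 or more libraries and were tested, and all 9 were among them. Merging the peaks of all libraries where they overlapped by at least 1 bp gave 83727 regions, of which 32 lay in the 9 loci.

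The mice were BALB/c, 6 to 8 weeks old, and each had received 800000 labelled tumour cells through the tail vein 7 days before its lungs were taken. The tumour cells were 4T1, a mammary carcinoma line of BALB/c origin, or CT26, a colon carcinoma line of the same strain, and AT2 cells were sorted either out of the metastatic niche or out of lung distal to it. The 4 groups (4T1 distal, 4T1 niche, CT26 distal and CT26 niche) had 3 libraries each, every library was made by Omni-ATAC-seq from 50000 sorted cells, and each sample pooled 5 lungs. Every group, distal lung included, came from tumour-bearing mice, so all comparisons are within injected animals, and no uninjected lung was analysed here.

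When alveoli are injured, AT2 cells can pass through a transitional state on the way to becoming AT1 cells, the thin cells of gas exchange. This state is known for the keratin Krt8, the tight junction protein Cldn4, the 14-3-3 protein Sfn, the galectin Lgals3 and the transcription factor Sox4, and for activity of p53. The p53 protein, made from Trp53, activates the cell cycle inhibitor Cdkn1a (p21) and its own antagonist Mdm2, a ubiquitin ligase that marks p53 for degradation. Sfn is also a known p53 target, and Plaur encodes the receptor for the protease urokinase, which acts in matrix turnover and cell migration.

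The peak lists held 56330 to 58237 peaks in the 4T1 distal libraries, 63722 to 66911 in 4T1 niche, 42067 to 50093 in CT26 distal and 51005 to 55529 in CT26 niche. They covered 42.0 to 45.7 Mb, 49.1 to 51.9 Mb, 31.4 to 34.4 Mb and 38.2 to 44.7 Mb in the same order. Read counts are not part of such lists, so the depth behind each one is unknown and no interval could be set on a length. All 12 AT2 marker genes examined had a peak in every library. In the niche over both models 9 of the 12 had a negative scaled change, and 1, the surfactant gene Sftpb, was called lower (-0.36 ± 0.07, limma adjusted p = 0.0249). Lengths in bp or kb below are unscaled, whereas log2 changes were fitted with limma to log2 of the length plus 500 bp after scaling each library to the mean total covered length. Without scaling, the median change of all loci moved from -0.04 to 0.15 for niche against distal and from 0.08 to -0.21 for CT26 against 4T1, so each direction below is relative to the rest of the genome. In a sorted bulk population, more open chromatin per cell and more cells with an open site cannot be told apart.

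Most of the regions at these genes were shared by all libraries. Of the 32 regions, 18 were held by all 12 libraries, compared with 42.1% of all regions, and 3 were held by a single library, compared with 15.3%. A region spanned a listed start of each of the 9 genes, and 8 of these 9 were held by all 12 libraries. The exception was Plaur, whose start region was held by 10. Of the other 23 regions, 10 were held by all 12 libraries.

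**Figure D1:**
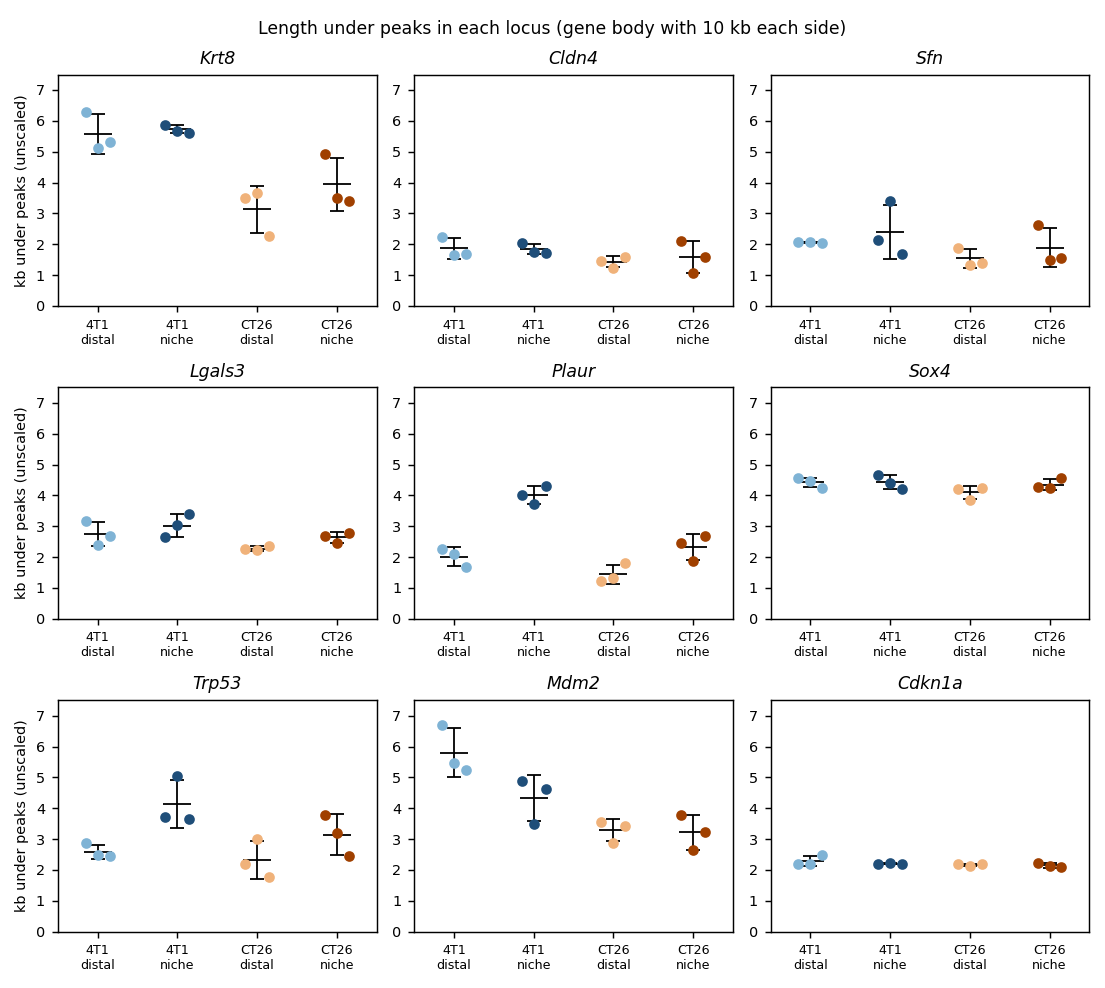
Length under peaks (kb, unscaled) in each of the 9 loci, by group. Points are the 3 libraries of a group, the horizontal mark is their mean and the bar is 1 SD. At Plaur every niche library lies above every distal library of its model, at Mdm2 the 4T1 distal libraries lie highest, and at Cdkn1a all 12 libraries lie between 2.10 and 2.47 kb.

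Plaur, the urokinase receptor gene, had a greater length under peaks in niche than in distal libraries of each model, though its call depended on the processing. The length under peaks in its locus was 2269, 2099 and 1668 bp in the 4T1 distal libraries and 4021, 3715 and 4292 bp in the 4T1 niche libraries. In the CT26 model it was 1227, 1322 and 1794 bp in distal lung and 2463, 1867 and 2672 bp in the niche. Niche and distal libraries did not overlap in either model, a pattern shared by 27.5% of loci in 4T1 and 33.5% in CT26. Over both models the scaled length was higher by a log2 change of 0.50 ± 0.09 (SE; limma, Benjamini-Hochberg adjusted p = 0.0261 over all loci). Plaur was 1 of 2 of the 9 loci that passed this comparison, against 2.38% of all loci tested (1.5% higher). Within 4T1 alone the change was 0.67 ± 0.13 (limma, adjusted p = 0.0501), just outside the threshold of 0.05. Within CT26 it was 0.33 ± 0.13 (limma, adjusted p = 0.212).

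The difference at Plaur lay at the gene start and inside the gene. The promoter, shown because peaks cover it to different extents in niche and distal libraries, spans chr7:24462233-24462482 on the plus strand (RefSeq, GRCm38.p6, the 250 bases before the start), with a match to the AP-1 motif TGANTCA in capitals.
Plaur: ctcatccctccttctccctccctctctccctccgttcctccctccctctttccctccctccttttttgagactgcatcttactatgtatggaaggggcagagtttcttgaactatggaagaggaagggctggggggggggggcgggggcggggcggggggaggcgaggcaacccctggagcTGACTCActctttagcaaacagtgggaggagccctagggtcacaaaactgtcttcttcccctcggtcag
The match begins 69 bases before the start. Motifs were searched on both strands, and TGANTCA occurred in 6.75% of the 32851 promoters of the table. Peaks covered all 250 bases in the 3 4T1 niche libraries and 78 bases in each 4T1 distal library. In the CT26 model they covered 0, 0 and 89 bases in distal lung and 79, 50 and 20 bases in the niche. The match itself lay under peaks in every 4T1 library, distal and niche. In CT26 it lay under peaks only in distal replicate 3 and niche replicate 1. The match is a description of the letters, not a measured binding site.

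The region at the Plaur start, chr7:24461439-24463093, carried peaks of 689, 413 and 294 bp in 4T1 distal and 1577, 1446 and 1634 bp in 4T1 niche. In CT26 it carried 0, 0 and 458 bp in distal lung and 646, 588 and 551 bp in the niche. Every niche library again lay above every distal library of its model, as at 3.04% of regions for both models together (16.5% in CT26), with 4T1 niche the highest group. The change over both models was 0.87 ± 0.18 (limma, adjusted p = 0.0207 over 64948 regions). When the same number of peaks was kept from every list the change was 0.86 ± 0.38 (limma, adjusted p = 0.296), so the call did not hold. It was also lost without 4T1 distal replicate 3 (adjusted p = 0.05 after rounding) and without 4T1 niche replicate 1 (0.0763), 2 (0.0737) or 3 (0.0687).

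Further into the gene, a region at chr7:24470322-24470730 was present only in the 4T1 niche libraries, with 229, 277 and 264 bp. Regions held by all 3 niche and no distal library of 4T1 made up 2.59% of all regions, and this was the only one of the 32. Only regions held by 3 or more libraries were fitted, and this one entered through the group where it is high, so its fitted changes are no evidence of a difference and no p is given. A neighbouring region at chr7:24472594-24473216 was held by niche replicates 1 and 3 of both models (405 and 526 bp in 4T1, 383 and 517 bp in CT26) and by no distal library. The niche lists were the longer ones in each model, and no share of all regions with this pattern is given. The upstream region at chr7:24459333-24460165 was held by all 12 libraries at 487 to 740 bp, as was the most downstream one at chr7:24480788-24482290 (664 to 1382 bp), which spans the start of the neighbouring gene Cadm4. Neither passed in any comparison of scaled lengths over all peaks, but the downstream one was longer in every 4T1 niche library (1146, 1382 and 1128 bp) than in every 4T1 distal library (905, 999 and 795 bp), as were 15.7% of regions. With peaks of -log10 q of at least 5, the upstream region was held by the 3 CT26 niche and no CT26 distal libraries, as were 2.09% of regions at that threshold. It was then called higher in the niche within CT26 and over both models, as were 1013 and 1725 of 41797 regions. With all peaks its scaled change within CT26 was 0.01 ± 0.09.

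**Figure D2:**
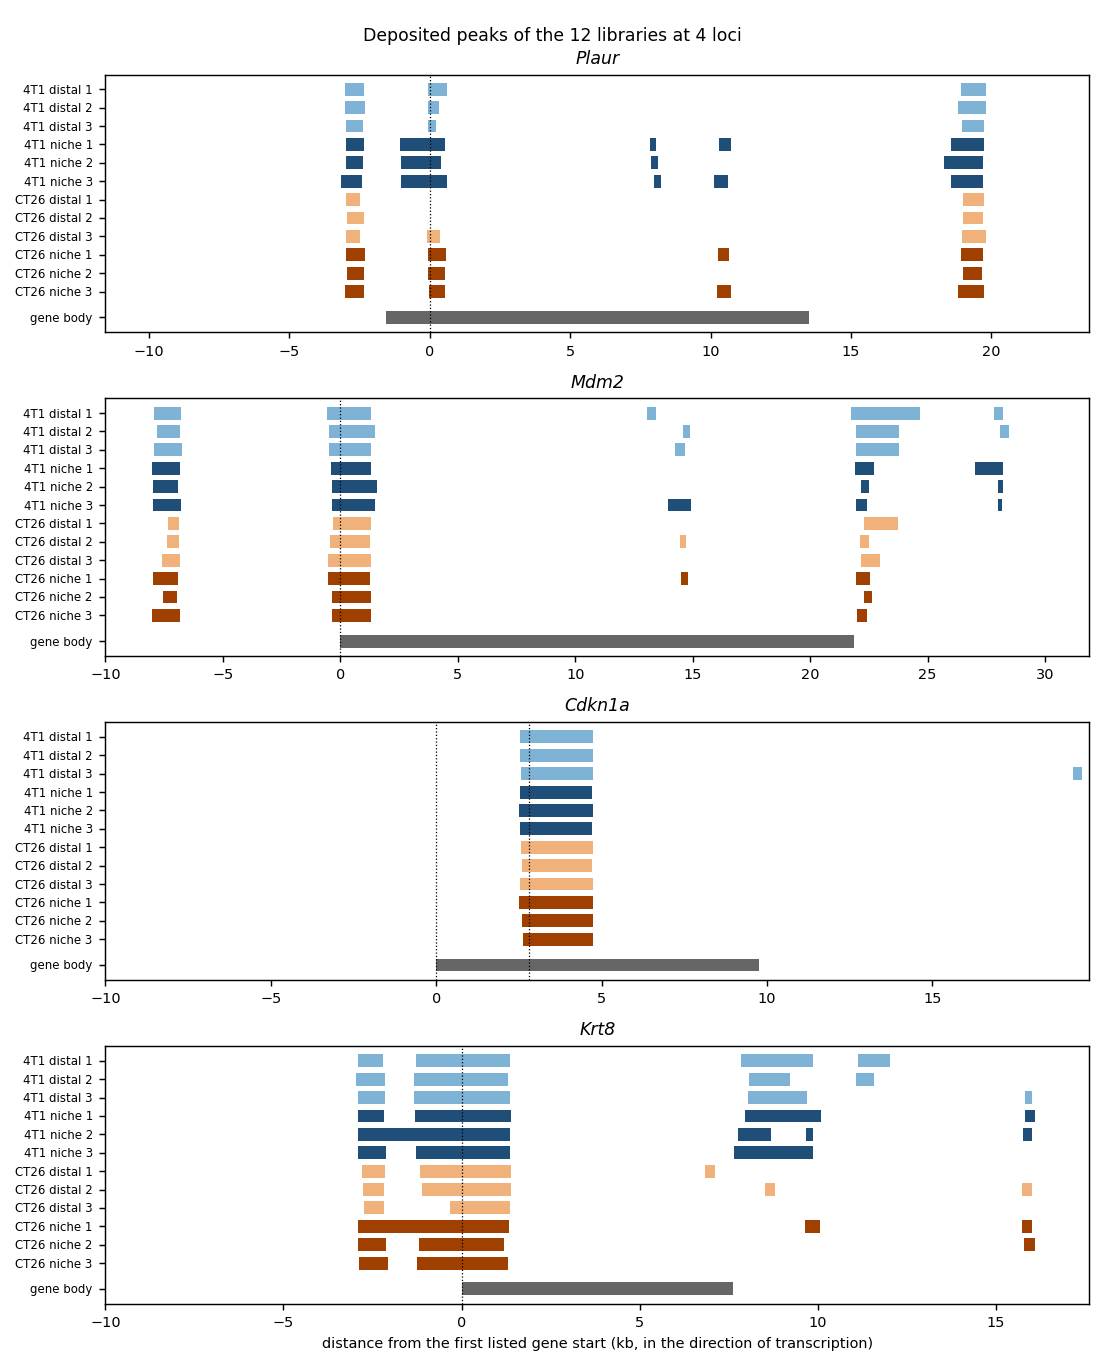
Deposited peaks of each library at Plaur, Mdm2, Cdkn1a and Krt8. Each bar is 1 peak, placed by its distance (kb) from the first listed gene start in the direction of transcription, each row is 1 library, and dotted lines mark listed starts. Plaur peaks at the start are widest in 4T1 niche, the Mdm2 peaks at the end of the gene are widest in 4T1 distal, and no library has a peak at the first Cdkn1a start.

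Marker loci of other cell types were measured in the same way. The unscaled summed length over 4 endothelial markers was 3.17 to 3.56 kb in 4T1 distal and 4.98 to 8.38 kb in 4T1 niche, and 1.28 to 2.94 kb and 2.57 to 4.21 kb in CT26. The sum over 5 fibroblast markers was 5.08 to 6.95 kb and 8.95 to 9.70 kb in 4T1, and 3.63 to 5.67 kb and 6.21 to 10.9 kb in CT26. Pecam1, an endothelial adhesion molecule (0.70 ± 0.16, limma adjusted p = 0.0433), and Twist1, a mesenchymal transcription factor (1.01 ± 0.23, adjusted p = 0.0448), passed over both models. Of the 4 endothelial loci, 3 had positive scaled changes over both models and 1 negative. Among the 5 fibroblast loci, 4 were positive and 1 negative. The sum over 6 markers of AT1 cells was 20.2 to 20.7 kb and 21.9 to 24.6 kb in 4T1, and 14.7 to 16.2 kb and 18.6 to 21.6 kb in CT26. Of the 6 only Pdpn, a membrane glycoprotein, passed over both models (0.65 ± 0.11, limma adjusted p = 0.0197). The other 5 had negative scaled changes in the niche, and the median of the 6 was -0.04, as over all loci. The sum over 9 leukocyte markers was 8.59 to 8.64 kb and 7.33 to 10.7 kb in 4T1, and 3.22 to 4.76 kb and 4.71 to 8.4 kb in CT26. Among them, the macrophage marker Adgre1 had no peak in any library, Ptprc and S100a8 had one in fewer than 3, and 2 of the 9 had one in all 12. The T cell gene Cd3e had 1.74 and 1.67 kb in 4T1 and 0 and 0.212 kb in CT26, and the myeloid integrin gene Itgam 1.73 and 1.83 kb and 0.16 and 0.78 kb, distal before niche. These were the 2 leukocyte loci called between models, both lower in CT26. Of the 5 tested, 2 had positive and 3 negative scaled changes between models. None of the 5 leukocyte loci tested passed for niche against distal over both models. The sum over 3 mammary markers was 7.92 to 10.9 kb and 9.61 to 10.1 kb in 4T1. In CT26 it was 4.63 to 7.49 kb and 5.49 to 10.4 kb. That over 3 intestinal markers was 3.37 to 5.38 kb and 5.15 to 5.61 kb in 4T1. In CT26 it was 2.8 to 3.78 kb and 3.17 to 5.84 kb. Only 1 mammary and 3 intestinal loci were tested, and none passed for niche against distal over both models. The part of these cell types in the Plaur result was not tested.

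The call for the Plaur locus rested on several single libraries. Leaving out 1 library at a time gave changes of 0.44 to 0.55 with adjusted p from 0.0186 to 0.0637 (limma), and 6 of the 12 fits passed. The call was lost without 4T1 distal replicate 2 (0.0543) or 3 (0.0589), without 4T1 niche replicate 1 (0.0535), 2 (0.0530) or 3 (0.0637), and without CT26 niche replicate 1 (0.0529). With the same number of peaks in every list it was 0.39 (adjusted p = 0.214), with peaks of -log10 q of at least 5 it was 0.44 (0.146), and in the gene body alone it was 1.20 (adjusted p = 0.0174).

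At Krt8, the keratin that names the transitional state, unscaled lengths were smaller in the CT26 model, but the scaled locus passed in neither comparison. Its locus held 6295, 5114 and 5304 bp in 4T1 distal and 5873, 5678 and 5620 bp in 4T1 niche. CT26 libraries had 3497, 3645 and 2258 bp in distal lung and 4919, 3513 and 3391 bp in the niche. All 6 CT26 libraries lay below all 6 4T1 libraries, as at 7.41% of loci. After scaling, the locus change between models was -0.30 ± 0.11 (limma, adjusted p = 0.0729) and did not pass. The scaled change between niche and distal was -0.05 ± 0.11 (limma, adjusted p = 0.818). In the gene body alone, without flanks, the change between models turned to 0.295 (adjusted p = 0.00677) and that in the niche was -0.237 (adjusted p = 0.047). Without CT26 distal replicate 2 the locus passed between models (-0.371, adjusted p = 0.0347).

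The Krt8 region with the largest change between models lay past the 3′ end of the gene, while the start was open in every library. This region, chr15:101994242-101996679, begins 32 bp beyond the gene and overlaps the body of the neighbouring keratin gene Krt78. It held 2026, 1159 and 1657 bp in 4T1 distal and 2132, 1157 and 2210 bp in 4T1 niche, against 0, 280 and 0 bp in CT26 distal and 410, 0 and 0 bp in CT26 niche. With 2 CT26 libraries holding it, the region entered the fit through the 4T1 libraries, so its change between models (-1.72 on the log2 scale) is given with no p. These peaks ranked low, between percentiles 1.09 and 3.35 of fold enrichment in their own lists, and too few libraries held the region to test it once the lists were set to the same number of peaks. The shorter CT26 lists therefore cannot be told apart from a difference at this site. The start region, chr15:102002958-102007304, was held by all 12 libraries at 2258 to 4268 bp.

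Cldn4, Sfn and Lgals3 did not pass in any locus comparison of scaled lengths with 10 kb flanks and all peaks. Between models, Cldn4 (0.193, limma adjusted p = 0.0128) and Sfn (0.176, adjusted p = 0.0155) were called higher in CT26 with 50 kb flanks, and Lgals3 (0.406, adjusted p = 0.0211) with peaks of -log10 q of at least 5. Cldn4, a tight junction component, had locus lengths of 1.86 ± 0.331 kb in 4T1 distal, 1.84 ± 0.176 kb in 4T1 niche, 1.43 ± 0.176 kb in CT26 distal and 1.58 ± 0.521 kb in CT26 niche (mean ± SD, n = 3 each). Niche and distal libraries overlapped in both models. Its promoter (RefSeq, GRCm38.p6, chr5:134946935-134947184, minus strand) is shown because it holds 2 matches to the AP-1 motif, in capitals, under peaks in every library.
Cldn4: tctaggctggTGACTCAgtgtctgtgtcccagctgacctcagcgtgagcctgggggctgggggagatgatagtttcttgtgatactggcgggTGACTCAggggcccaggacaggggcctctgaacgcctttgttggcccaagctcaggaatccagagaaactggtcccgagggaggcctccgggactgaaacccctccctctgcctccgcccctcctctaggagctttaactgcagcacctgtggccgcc
The matches begin 240 and 158 bases before the start, and all 250 bases were covered in all 12 libraries. Plaur and Cldn4 were the members with this motif, 2 of 10 promoters.

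Sfn, a cell cycle checkpoint protein of epithelia, showed wide spread between niche libraries. Its start region, chr4:133601467-133603285, held 601, 760 and 483 bp in 4T1 distal and 1098, 1819 and 709 bp in 4T1 niche. In CT26 it held 509, 405 and 427 bp in distal lung and 1037, 574 and 677 bp in the niche. In CT26 every niche library lay above every distal one, as at 16.5% of regions. In 4T1, niche replicate 3 lay below distal replicate 2, and the region did not pass over both models (limma, adjusted p = 0.118). Peaks reached the annotated start itself in 9 of 12 libraries, which were 2 of 3 in 4T1 distal, 1 of 3 in CT26 distal and all 6 niche libraries. The niche lists were the longer ones in each model, and no share of all gene starts with this pattern is given. Over the whole locus the change was -0.02 ± 0.13 (limma, adjusted p = 0.933). A second region past the 3′ end, chr4:133598753-133600349, was held by all 12 libraries at 877 to 1582 bp.

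Lgals3, a secreted and nuclear galectin, had 2.75 ± 0.386 kb in 4T1 distal, 3.02 ± 0.369 kb in 4T1 niche, 2.28 ± 0.0679 kb in CT26 distal and 2.64 ± 0.179 kb in CT26 niche (mean ± SD, n = 3). Every CT26 niche library lay above every CT26 distal one, as at 33.5% of loci, but the scaled change over both models was -0.06 ± 0.08 (limma, adjusted p = 0.676). Its start region, chr14:47373702-47374720, varied little, from 858 to 973 bp. A region across the 3′ end of the gene, chr14:47385380-47386331, was held by 2 of 3 4T1 distal, 3 of 3 4T1 niche, 0 of 3 CT26 distal and 2 of 3 CT26 niche libraries.

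Sox4, a transcription factor of epithelial progenitors, was open at similar length in all groups, between 3850 and 4668 bp, and its scaled locus change in the niche was -0.18 ± 0.05 (limma, adjusted p = 0.0762). The widest of its regions lies 4217 bp upstream, at chr13:28957916-28960092, and held 2025 to 2177 bp in all 12 libraries. Because this length hardly varied while total covered length did, the scaled value was below that of distal lung in the niche (-0.18 ± 0.05, limma adjusted p = 0.0364) and higher in CT26 (0.28 ± 0.05, adjusted p = 0.00341). Without scaling the same changes were 0.02 and -0.02, and the direction reversed.

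Among the p53 genes, Trp53 itself had a greater mean length under peaks in the niche than in distal lung in both models, without passing the test. Its locus held 2858, 2482 and 2443 bp in 4T1 distal and 3717, 5042 and 3642 bp in 4T1 niche, which did not overlap, as at 27.5% of loci. In CT26 it held 2188, 3005 and 1770 bp in distal lung and 3776, 3199 and 2465 bp in the niche, which did. The scaled change over both models was 0.26 ± 0.12 (limma, adjusted p = 0.212). Without scaling it was 0.475 and passed (adjusted p = 0.0233). The start region, chr11:69578661-69581958, also spans the start of Wrap53, the gene read in the opposite direction, and the lists cannot assign it to one of them. It held 3278, 3282 and 3266 bp in 4T1 niche, nearly its full extent, and 2119 to 2858 bp in 4T1 distal. Such a separation in 4T1 was found at 15.7% of regions. In CT26 it held 1770 to 3005 bp in distal lung and 2465 to 3199 bp in the niche, which overlapped. The scaled change of this region over both models was 0.11 ± 0.12 (limma, adjusted p = 0.624) and did not pass. The other region, chr11:69598631-69600505, which overlaps the gene Atp1b2, was held by all 3 4T1 niche libraries, by 1 CT26 niche library and by 1 distal library, of 4T1.

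Mdm2, the p53 antagonist, had a shorter length under peaks in the niche relative to the rest of the genome over both models. Its locus held 6713, 5458 and 5231 bp in 4T1 distal and 4880, 3491 and 4628 bp in 4T1 niche. In CT26 it held 3568, 2874 and 3428 bp in distal lung and 3795, 2645 and 3225 bp in the niche. The 4T1 niche libraries lay below the 4T1 distal ones, a pattern found at 0.915% of loci, while the CT26 groups overlapped. The scaled change over both models was -0.42 ± 0.09 (limma, adjusted p = 0.0357), and Mdm2 was the only one of the 9 loci called lower, against 0.886% of all loci. The change was -0.57 ± 0.13 (adjusted p = 0.0816) within 4T1 and -0.28 ± 0.13 (adjusted p = 0.250) within CT26, and the difference between them was not called at any of the 9 loci.

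The Mdm2 region called with the larger change lay at the end of the gene. The region chr10:117686075-117689024 overlaps the last 150 bp of Mdm2 and lies for its other 2800 bp beyond it, where it also overlaps the neighbouring carboxypeptidase gene Cpm. It held 2950, 1831 and 1825 bp in 4T1 distal and 801, 347 and 462 bp in 4T1 niche. In CT26 it held 1484, 384 and 806 bp in distal lung and 627, 362 and 408 bp in the niche. The change was -1.46 ± 0.27 within 4T1 (limma, adjusted p = 0.0130) and -1.05 ± 0.19 over both models (adjusted p = 0.0149). With the same number of peaks in every list the 4T1 value turned to 0.43 ± 0.41 (adjusted p = 0.891), so neither the direction nor the call held, and the value over both models was -0.39 (adjusted p = 0.538). Within 4T1 the call was also lost without 4T1 distal replicate 1 (-1.28, adjusted p = 0.0602) and without 4T1 niche replicate 1 (0.118), 2 (0.234) or 3 (0.208), and over both models without 4T1 niche replicate 2 (0.0646) or 3 (0.0616).

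The start of Mdm2 was open in every library. Its promoter (RefSeq, GRCm38.p6, chr10:117710759-117711008, minus strand) is shown with 1 match to the p53 half-site in capitals, 186 bases before the start.
Mdm2: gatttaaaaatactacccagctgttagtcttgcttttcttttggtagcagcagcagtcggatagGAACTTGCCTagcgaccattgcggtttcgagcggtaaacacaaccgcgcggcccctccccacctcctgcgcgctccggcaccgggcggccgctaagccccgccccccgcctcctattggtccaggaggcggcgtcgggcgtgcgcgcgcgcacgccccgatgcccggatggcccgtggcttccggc
Peaks covered all 250 bases in all 12 libraries. The start region, chr10:117709190-117711307, held 1609 to 1948 bp in all 12, with means of 1871 ± 73.8, 1803 ± 100 and 1730 ± 118 bp in 4T1 distal, 4T1 niche and CT26 distal and 1712 ± 91.1 bp in CT26 niche (SD, n = 3). Its scaled change over both models was -0.22 ± 0.04 (limma, adjusted p = 0.0190), and -0.03 without scaling.

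The Mdm2 locus call also depended on single libraries. Only 2 of the 12 fits that left out 1 library passed, those without CT26 distal replicate 2 or CT26 niche replicate 3, with changes of -0.46 to -0.35 and adjusted p of 0.0484 to 0.0682 (limma) over the 12. Without scaling the change was -0.21 (adjusted p = 0.148), with the same number of peaks -0.17 (0.350), with peaks of -log10 q of at least 5 -0.03 (0.880), and in the gene body alone -0.20 (0.288). With flanks of 2 kb it was -0.60 (0.00987). Within 4T1 the direction turned with the same number of peaks (0.0192) and with -log10 q of at least 5 (0.3).

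Cdkn1a, which encodes the cell cycle inhibitor p21 and is a classical p53 target, had the same open region in all libraries, and this region lay at the second of its 2 listed starts. Both promoters are shown (RefSeq, GRCm38.p6, plus strand), chr17:29090729-29090978 before the first start and chr17:29093519-29093768 before the second, with p53 half-sites in capitals.
Cdkn1a first start: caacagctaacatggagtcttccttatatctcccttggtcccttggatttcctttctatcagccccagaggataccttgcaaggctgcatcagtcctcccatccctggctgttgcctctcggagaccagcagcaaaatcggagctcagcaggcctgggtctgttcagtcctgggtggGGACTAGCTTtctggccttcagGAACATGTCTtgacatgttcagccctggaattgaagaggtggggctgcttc
Cdkn1a second start: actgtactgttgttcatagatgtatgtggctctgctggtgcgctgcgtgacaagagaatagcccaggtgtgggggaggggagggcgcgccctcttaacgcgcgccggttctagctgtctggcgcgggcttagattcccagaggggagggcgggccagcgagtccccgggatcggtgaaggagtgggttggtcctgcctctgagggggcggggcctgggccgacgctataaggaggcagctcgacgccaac
The first promoter holds 2 matches, 73 and 51 bases before its start, and no library had a peak on any of its 250 bases. The second, 2790 bp further on, holds none, and peaks covered 160 to 250 of its bases and its start in all 12 libraries. The p53 half-site occurred in 7.13% of all promoters and in 3 of the 10 member promoters, those of Mdm2, Trp53 and the first Cdkn1a start.

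The Cdkn1a region, chr17:29093483-29095712, held 2204, 2189 and 2186 bp in 4T1 distal, 2200, 2212 and 2182 bp in 4T1 niche, 2182, 2131 and 2191 bp in CT26 distal and 2230, 2122 and 2097 bp in CT26 niche. The groups overlapped throughout. Over both models the scaled locus change was -0.23 ± 0.05 (limma, adjusted p = 0.0531), against -0.03 without scaling. The single region passed as lower in the niche after scaling (-0.20 ± 0.04, adjusted p = 0.0221), a change of -0.00377 without it. The only other peak in the locus was of 285 bp, in 4T1 distal replicate 3.

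**Figure D3:**
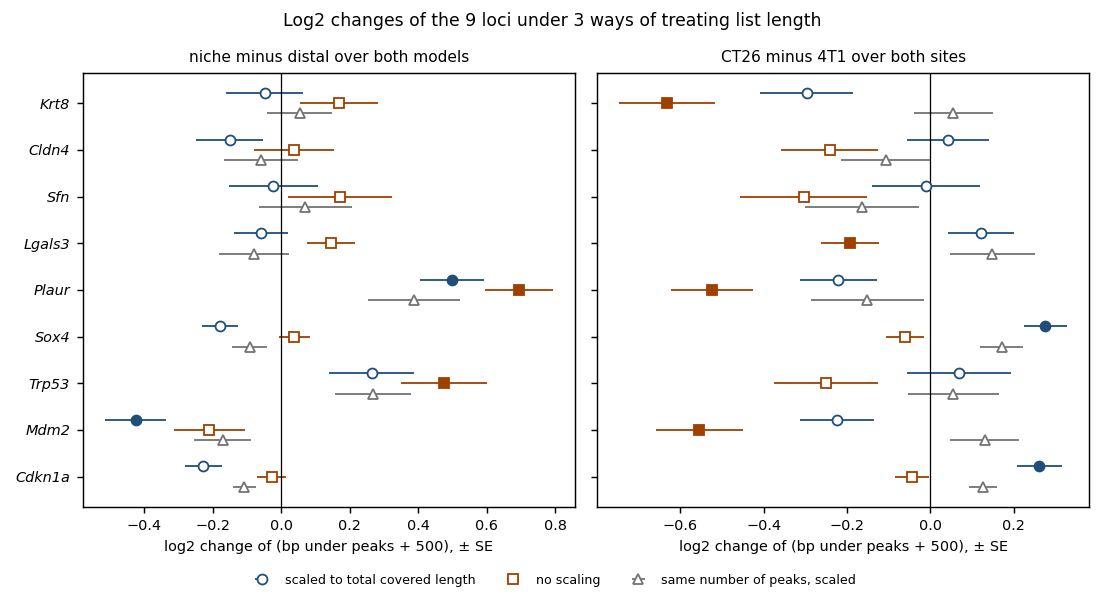
Log2 changes (± SE) of the length under peaks plus 500 bp in the 9 loci, for niche against distal lung (left) and CT26 against 4T1 (right), with lengths scaled, unscaled, or scaled after keeping the same number of peaks per list. Filled symbols passed at an adjusted p under 0.05. Plaur is positive and Mdm2 negative on the left under all 3, whereas Cldn4, Lgals3, Sox4, Trp53 and Cdkn1a change sign on the right without scaling.

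Counted over the 9 loci, 1 was higher (Plaur) and 1 lower (Mdm2) in the niche over both models. The median change of the 9 was -0.06, against -0.04 over all loci. Within each model limma called 0 of 9, against calls at 0.624% of all loci in 4T1 and 0.672% in CT26. At an unadjusted p under 0.05 there were 5 of 9 in 4T1, against 13.4% of all loci, and 4 of 9 in CT26, against 19% of all loci. Their directions were mixed: Plaur and, in 4T1 only, Trp53 were higher, while Mdm2, Cdkn1a and Sox4 were lower in both models. Cdkn1a and Sox4 had similar unscaled lengths in all groups. For the difference of the niche effect between models limma called 0 of 9, against 0.0594% of loci, with 0 at an unadjusted p under 0.05, against 8.81%. No other tool was run. Without scaling, the calls over both models were 2 higher (Plaur and Trp53) and 0 lower, while all loci went from 252 higher and 149 lower to 3956 higher and 25 lower.

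Of the 28 member regions tested, 6 passed for niche against distal over both models, against 10% of all regions. Plaur accounted for the 2 that were higher (4.69% of all regions were), and 1 region each of Mdm2 (end of the gene), Mdm2 (start), Cdkn1a and Sox4 for the 4 that were lower (5.34% of all). Without scaling only the Plaur pair and the region at the end of Mdm2 passed. Within 4T1 the Plaur intragenic region and the region at the end of Mdm2 passed, 1 higher and 1 lower of 28, against 2.69% of all regions (2.53% higher and 0.169% lower). Within CT26 limma called 0 of 28, against 2.47% of all regions, with 7 at an unadjusted p under 0.05, against 20.8%. For the difference of the niche effect between models it called 1 of 28, the intragenic Plaur region, against 1.79% of all regions. That region is in these counts only because the 4T1 niche libraries hold it.

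Between tumour models the locus calls at these genes changed with the scaling. Sox4 (0.28 ± 0.05, limma adjusted p = 0.00918) and Cdkn1a (0.26 ± 0.05, adjusted p = 0.0102) were higher in CT26, 2 of 9 against 24.1% of all loci (19.2% higher). Without scaling their changes were -0.06 and -0.04, and Krt8, Lgals3, Plaur and Mdm2 were called lower instead, 0 higher and 4 lower. Over all loci the split went from 3229 higher and 822 lower to 21 higher and 7788 lower. Of the 28 regions, 9 passed against 24.6%, 5 higher and 4 lower (16.1% and 8.5% of all regions). The 5 higher ones were the near-constant regions of Cdkn1a, Sox4, Mdm2 (start) and Lgals3 (2 regions), and none of them passed without scaling. The 4 lower ones were the region past Krt8, the Plaur start and intragenic regions, and a region in Cpm downstream of Mdm2 (chr10:117682297-117683757), held by 5 of the 6 4T1 libraries and no CT26 library. Of these 4, fewer than 3 CT26 libraries held the region past Krt8, the intragenic Plaur region and the one in Cpm, which so entered through 4T1 alone and are named as descriptions. Without scaling the split was 0 higher and 6 lower, and the region past Krt8 and both Plaur regions were among the 6. With the same number of peaks per list, no member locus and no member region passed between the models.

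**Figure D4:**
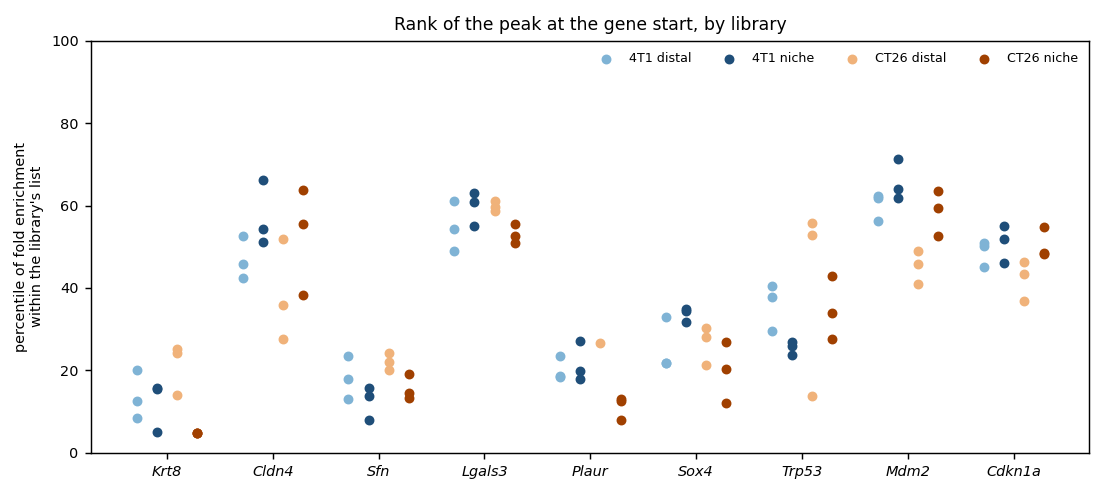
Percentile of the deposited fold enrichment of the highest peak in the region at each gene start, within its own library's list (100 is the highest). Only libraries that hold the region are shown. Points are libraries, coloured by group. Krt8, Sfn and Plaur lie at or below 27.2 in every library, Lgals3 at 49.0 or above, and Mdm2 between 40.9 and 71.3.

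The rank of the highest peak in the region at the gene start differed between the genes and with the measure used. That peak need not cover the start itself. By the authors' fold enrichment, averaged over each peak, the mean percentile over the libraries was 57.4 at Mdm2, 56.8 at Lgals3, 48.8 at Cldn4, 48.1 at Cdkn1a, 34.3 at Trp53 and 26.4 at Sox4. It was 18.6 at Plaur, 17.1 at Sfn and 12.9 at Krt8, with SDs from 4.55 to 12.2 over all 9. Ranked by the authors' -log10 p, the order changed: Lgals3 was at 88.0, Cdkn1a at 86.4, Trp53 at 77.5, Sfn at 77.4 and Plaur lowest, at 26.3. The Krt8 start region moved from 12.9 to 67.1. Each measure took its own highest peak in the region, so these values can come from different peaks. Lists of different length make these ranks a description within each library, and no change between groups was read from them.

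Further genes of the same programmes were counted in the same way. Of 29 other genes used for transitional or damage-associated alveolar states, 27 were tested, and 0 were higher and 1 lower in the niche over both models, against 1.5% and 0.886% of all loci, with a median of -0.01 against -0.04 for all loci. The lower one was Gdf15, a stress cytokine (-0.22 ± 0.05, limma adjusted p = 0.0445), whose unscaled length was 2.21 ± 0.0588 kb in 4T1 distal and 2.14 kb on average in each other group. Within CT26, 1 of the 27 was higher, the hyaluronan receptor gene Cd44 (0.59 ± 0.11, adjusted p = 0.0435), at 1.96 ± 0.265 kb in distal lung and 3.91 ± 1.09 kb in the niche (SD, n = 3). Of 33 other p53 targets, regulators and relatives, all tested, 0 were higher and 1 lower, with a median of -0.05. The lower one was Trp53inp1, a p53-induced nuclear protein (-0.30 ± 0.05, adjusted p = 0.0236), at 2.93 ± 0.228 and 2.7 ± 0.0274 kb in 4T1 and 2.62 ± 0.187 and 2.41 ± 0.125 kb in CT26, distal before niche.

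Between models, 5 of the 27 transitional genes were higher and 4 lower in CT26, against 19.2% and 4.89% of all loci. The lower ones included Il33, an alarmin of AT2 cells (-0.64 ± 0.12, adjusted p = 0.00916), and Krt18, the partner of Krt8 in keratin filaments (-0.32 ± 0.10, adjusted p = 0.0444). Krt18 had 2.56 ± 0.290 and 3.06 ± 0.578 kb in 4T1 and 1.23 ± 0.175 and 2.16 ± 0.199 kb in CT26, distal before niche. Of the 33 p53 genes, 8 were higher and 1, Usp7, lower, against the same shares. The higher ones included Perp and Gadd45a (0.24 ± 0.06 and 0.20 ± 0.06, adjusted p = 0.0174 and 0.0304), whose unscaled lengths were no greater in CT26: Perp had 1.55 and 1.53 kb in 4T1 and 1.44 and 1.53 kb in CT26, and Gadd45a had 2.12 and 2.83 kb and 1.91 and 2.63 kb.

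The loci of other genes whose scaled lengths followed Plaur most closely over the 12 libraries were Hao1 (Pearson r = 0.910), Chst11 (0.910) and Pxdn (0.906). Chst11 had 1.44 kb in 4T1 distal, 4.35 kb in 4T1 niche, 0.907 kb in CT26 distal and 1.48 kb in CT26 niche. Those closest to Mdm2 were Mmp10 (0.898), Camsap1 (0.882) and Fabp3 (0.862). These were picked as the highest among all tested loci, and the libraries share list length and group, so the values are descriptions.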

How the data were processed

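Omni-ATAC-seq was run on sorted AT2 cells (12 libraries, 4 groups of 3). The labels give the molecule as total RNA, while their protocol and the files are ATAC-seq. The authors deposited 1 list of broad peaks per library in GRCm38 coordinates, and the submitters' processing notes name MACS2 and bedtools. Aligner, settings and versions are not stated there. Of the deposited columns, those used were start, end, fold enrichment (a ratio to background), -log10 p and -log10 q, whose lowest value was 1.00. The last 3 served as filters or ranks only.

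Only peaks on X and the 19 autosomes entered. For each locus (gene body with 10 kb flanks) and each merged region, the length under peaks was scaled to the mean total covered length, with 500 bp added to each, and limma (version 3.58.1, R 4.3.3) was run on the log2 values with 4 group means and eBayes with trend, for features that 3 or more libraries held. Lengths were computed in Python 3.11.15. P-values were adjusted by Benjamini-Hochberg over 16823 loci or 64948 regions, with calls under 0.05. The fit was also run on simulated normal noise with planted changes. At a planted log2 change of 0.5 it recovered 45% within 4T1, 46% within CT26 and 68% over both models. The simulated libraries had no differences of list length, so this does not test the scaling. The lists hold no counts, so depth is unknown. Samples are labelled biologically independent pools.

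The 9 genes and the gene lists were chosen with earlier results of these data known. Named singly were the 9 genes, their regions at the start, the widest, and those that passed or were held by 1 side of a comparison only, the 3 loci closest to a called gene, and called list members. The annotation used gives gene bodies without exons. Promoter sequences were read from RefSeq (GRCm38.p6), where all 9 genes matched. Alternatives were other scalings, peak thresholds, flanks, added lengths and filters, a replicate block, and each library left out. The 3 region comparisons within a model or between niche effects were added after seeing the data.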

Additional observations from a re-analysis of the deposited data

How the results depend on the processing

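The member loci called within 4T1 (main 0) were 1 without scaling, 1 with 2 kb flanks, 2 with 50 kb flanks and 1 with 1000 bp added. Within CT26 (main 0), 1 was called without scaling. Over both models (main 2), 0 were called with the same number of peaks and 0 with -log10 q of at least 5. Between models (main 2), 4 were called without scaling and 0 with the same number of peaks. Member regions called over both models (main 6) were 3 without scaling, 0 with the same number of peaks and 2 with -log10 q of at least 5, and between models (main 9) 0 with the same number of peaks. Regions held by all libraries (main 18) were 11 when peaks had to cover at least 50% of a region and 11 with -log10 q of at least 5. The median rank of the start regions was 34.3 by fold enrichment and 71.2 by -log10 p.

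Without 1 library each, loci called were 0 to 1 within 4T1 and 0 to 2 over both models, and regions called over both models 0 to 7. Loci that changed sign among these fits ranged from -0.157 to 0.0249 (Krt8, niche), -0.129 to 0.0557 (Sfn, niche), -0.0179 to 0.125 (Cldn4, models), -0.0886 to 0.0963 (Sfn, models) and -0.0363 to 0.156 (Trp53, models). Over both models, the calls at the Mdm2 start and the Cdkn1a region were lost without any 1 of the 4T1 niche libraries (adjusted p 0.0648 to 0.0786 and 0.0685 to 0.0845), Cdkn1a also without 4T1 distal replicate 3 (0.0517). Sox4 upstream passed only without CT26 distal replicate 3 or CT26 niche replicate 2 or 3. Between models the Plaur start passed only without 4T1 or CT26 distal replicate 3. Within 4T1 the Plaur locus passed without CT26 distal replicate 1 or 3 or CT26 niche replicate 2 or 3 (0.0372 to 0.048), and between models Plaur passed without CT26 distal replicate 3 (0.0493) and Mdm2 without 4T1 niche replicate 2 (0.0301).

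Several directions reversed. For niche against distal over both models, without scaling, the changes were 0.169 (Krt8), 0.038 (Cldn4), 0.171 (Sfn), 0.145 (Lgals3) and 0.0389 (Sox4, with 0.00119 in 4T1 and 0.0765 in CT26), and 0.0163 at the upstream Sox4 region. With the same number of peaks they were 0.0537 (Krt8) and 0.0709 (Sfn), and 0.0618 (Krt8) with -log10 q of at least 5. Lgals3 was 0.0096 with 2 kb and 0.0121 with 50 kb flanks and 0.00611 in the gene body, where Sfn was 0.063. Within 4T1, Mdm2 was 0.0192 with the same number of peaks and 0.3 with -log10 q of at least 5, and the region at its end was 0.434 with the same number. For CT26 against 4T1 without scaling, the changes were -0.242 (Cldn4), -0.192 (Lgals3), -0.0603 (Sox4), -0.251 (Trp53) and -0.0442 (Cdkn1a), and at single regions -0.0222 (Lgals3 start), -0.0182 (Sox4 upstream), -0.0738 (Mdm2 start) and -0.02 (Cdkn1a). With the same number of peaks they were 0.0553 (Krt8), -0.107 (Cldn4) and 0.13 (Mdm2). With -log10 q of at least 5 they were 0.0839 (Krt8), -0.0968 (Cldn4), 0.0823 (Sfn) and 0.108 (Mdm2). With 50 kb flanks Sfn was 0.176, and with 2 kb flanks Lgals3 was -0.036. In the gene body they were 0.295 (Krt8), 0.0555 (Sfn), -0.0421 (Lgals3), -0.0315 (Trp53) and 0.0213 (Mdm2). The cause was not tested. Regions that fewer than 3 libraries held under a stricter threshold, such as the Plaur start with -log10 q of at least 5, could not be fitted there.

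Same-numbered libraries did not deviate together (correlations within models from -0.044 to 0.089). With a replicate block, limma called 1 locus and 0 regions over both models. The adjusted p of limma was then 0.0426 for the Mdm2 locus and 0.0522 for the Plaur locus. Depth is unknown, so a missing peak cannot be read as closed chromatin.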
